A study of Mus musculus with 7 samples.

Results

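The genes described here encode the heterogeneous nuclear ribonucleoproteins (hnRNPs) and the serine/arginine-rich (SR) splicing factors of the mouse. Members were chosen by name, with earlier results of these data known. They are every gene whose symbol starts with Hnrnp, or is Srsf followed by a number, without rows named as pseudogenes. This gave 31 of the 54309 genes in the deposited table, 20 hnRNP genes and 11 SR genes. All 31 had a mean at or above 1 TPM (transcript abundance per unit of transcript length, scaled to the same sum in every sample) and were tested. The 3 pseudogene rows left out reached at most 0.746 TPM in any sample.

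HnRNPs and SR proteins are abundant nuclear RNA-binding proteins that coat new transcripts and steer the choice of splice sites. SR proteins bind exonic enhancers through RNA recognition motifs (RRMs) and recruit the spliceosome with an arginine- and serine-rich tail, whereas many hnRNPs silence exons, so the balance of both helps decide which exons are kept. Several hnRNPs also shuttle to the cytoplasm and accompany mRNAs into axons, and many members limit their own expression by splicing their transcripts into forms that are degraded.

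Dorsal root ganglia, which hold the cell bodies of sensory neurons, were taken at lumbar levels 4 to 6 from C57bl/6 mice labelled male and aged 6 to 8 weeks. All mice had a sciatic nerve injury, and no uninjured group is part of the comparison. In the ZT20 group (4 samples) Zeitgeber time was 20, counted in hours from lights on, and in the ZT8 group (3 samples) it was 8. Ganglia were taken 72 h after injury, so injury and dissection share one clock time and cannot be told apart. Neurons were enriched from the enzyme-dissociated cells on an albumin gradient. Library identifiers in the labels start with numbers at ZT20 and with letters at ZT8, and whether these mark batches is not stated; such a batch cannot be told apart from clock time. The labels do not say how many mice gave 1 sample, so p-values measure only the spread between these samples. The comparison asks which of these genes differed with clock time in injured, neuron-enriched ganglia.

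Some libraries stood apart. Genes above 0 TPM numbered 24192 to 25238 in the ZT20 samples and 22541, 18297 and 22973 in ZT8 replicates 1 to 3. Depth is unknown, because every TPM column has the same sum. The 4 Y-linked genes measured summed to 63.6, 33.1, 0.0162 and 0.00868 TPM in ZT20 replicates 1 to 4 and to 61.1 to 84.6 TPM at ZT8, although all samples are labelled male. Neuronal markers (12 genes) summed to 18509 to 23325 TPM at ZT20 and 14358 to 21928 TPM at ZT8, and 2 of 12 were called higher at ZT20 by the test described below. Satellite glia markers (6 genes) summed to 7483 to 9148 TPM at ZT20 and 12760 to 15466 TPM at ZT8, and 3 of 6 were called lower. Among Schwann cell, macrophage, fibroblast, endothelial, erythroid, and plasma and B cell markers, 1 tested gene was called (Mzb1, lower at ZT20). Plasma and B cell markers summed to 174 to 384 TPM at ZT20 and 352 to 843 TPM at ZT8. Erythroid markers summed to 2370 to 6679 TPM at ZT20 and to 1603, 9534 and 951 TPM in ZT8 replicates 1 to 3, so ZT8 replicate 2 was the highest of all samples. No listed marker was at 0 throughout a group, and the part of these shifts in the differences of the members was tested only through the marker score used below. In bulk samples, fewer cells of a type and less RNA per cell cannot be told apart.

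All members were detected in every sample, over a 130-fold range of mean levels, from 4.48 TPM for Hnrnpul2 to 581 TPM for Hnrnpk. Hnrnpk, which binds cytosine-rich RNA and DNA through KH domains, alone made up 32.3% ± 0.933 of hnRNP TPM at ZT20 (SD, n = 4), against 38.0% ± 1.03 at ZT8 (SD, n = 3). Next came Hnrnpa2b1 at ZT20 (175 TPM, against 168 TPM for Hnrnpc) and Hnrnpc, a core protein of the particle that packages nascent RNA, at ZT8 (179 TPM). Among SR genes, Srsf5 (169 TPM) was above Srsf7 (117 TPM) at ZT20, while at ZT8 the means of Srsf5 (147 TPM) and Srsf7 (148 TPM) differed by less than their spread. Srsf9 had the lowest SR mean at ZT20 (9.65 TPM) and Srsf1 at ZT8 (8.68 TPM). The hnRNP genes together reached 1594, 1690, 1850 and 1851 TPM in ZT20 replicates 1 to 4 and 1692, 1469 and 1612 TPM in ZT8 replicates 1 to 3. SR genes together reached 669, 653, 664 and 625 TPM at ZT20 and 629, 579 and 606 TPM at ZT8. The ranges of both sums overlapped between the groups. By subfamily, the 4 A/B genes summed to 364 ± 46.2 TPM at ZT20 (SD, n = 4 here and below), against 238 ± 47.1 TPM at ZT8 (SD, n = 3). The 4 F/H genes summed to 276 ± 10.3 TPM, against 237 ± 21.7 TPM at ZT8, and the L pair to 52.6 ± 11.1 TPM, against 35.6 ± 1.54 TPM. The 3 U genes summed to 161 ± 70.2 TPM, against 135 ± 22.99 TPM, and the 3 D genes to 52.5 ± 3.17 TPM, against 63.8 ± 9.50 TPM. The 6 SR genes with 1 RRM summed to 393 ± 18.2 TPM, against 379 ± 4.06 TPM, and the 5 with a pair of RRMs to 260 ± 19.97 TPM, against 226 ± 21.5 TPM. These sums were not tested. The ratio of hnRNP to SR TPM averaged 2.68 ± 0.251 at ZT20 (SD, n = 4), against 2.63 ± 0.0800 at ZT8 (SD, n = 3), a difference smaller than the spread between samples.

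**Figure D1:**
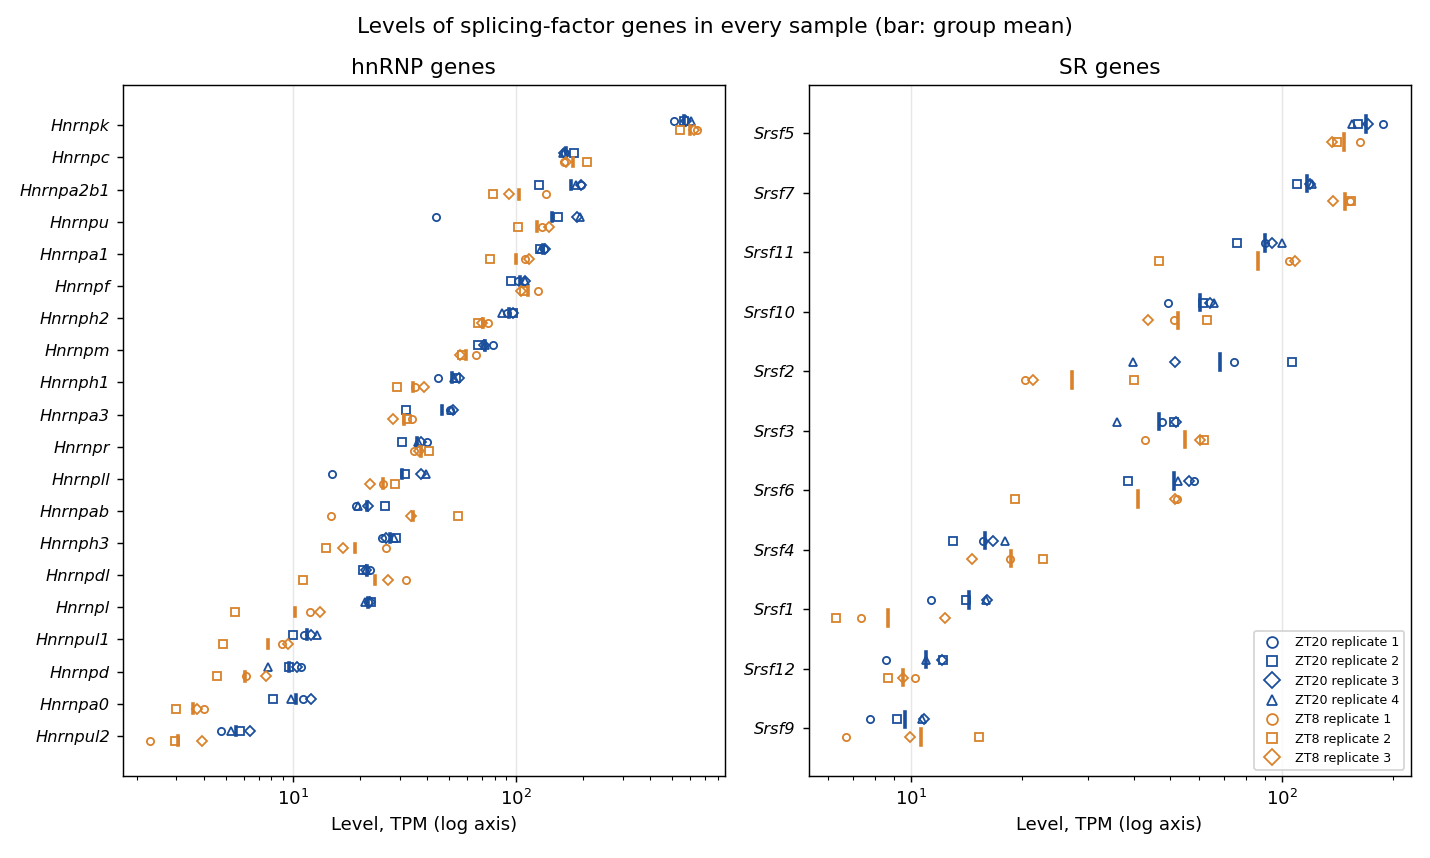
Level of each hnRNP gene (left) and SR gene (right) in TPM on a log axis, for 4 ZT20 samples (blue) and 3 ZT8 samples (orange), with 1 symbol per replicate and a bar at the group mean. Hnrnpk (mean 581 TPM) lies above all other members in every sample, and the Hnrnpa0 and Hnrnpl values do not overlap between the groups.

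Of the 20 hnRNP genes 5 were higher at ZT20 and 0 lower, and of the 11 SR genes 1 was higher and 0 lower. The hnRNP genes were Hnrnpa0, Hnrnpl, Hnrnpa2b1, Hnrnph1 and Hnrnph2, and the SR gene was Srsf2. The test was limma on log2(TPM + 1) over the 14800 genes that passed the same minimum mean, and called means a Benjamini-Hochberg adjusted p under 0.05. Differences are on this log2 scale, as ZT20 minus ZT8. Over all tested genes 16.4% were called, 12.8% higher and 3.61% lower, so the members' share was near that of the whole table. Without adjustment, limma gave a p under 0.05 for 13 members that were higher and for 1 that was lower (Srsf7), beside 26.0% of all tested genes higher and 8.61% lower. Group ranges did not overlap for 9 hnRNP genes, all higher at ZT20, and for 1 SR gene, lower at ZT20, where 24.5% of all tested genes were higher without overlap and 8.72% lower.

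The median log2 difference was 0.40 for hnRNP genes and 0.18 for SR genes, against 0.23 for all tested genes. Median-ratio scaling between samples moved the median of all genes to 0.019, that of hnRNP genes to 0.15 and that of SR genes to −0.054. It left 2 members called higher (Hnrnpa0 and Hnrnpl) and made 2 lower (Hnrnpf and Srsf7), beside 7.36% of all tested genes higher and 8.47% lower. A correction of each sample for its trend with transcript length gave medians of 0.00010 for hnRNP genes and −0.070 for SR genes, and again called Hnrnpa0 and Hnrnpl higher. With it Hnrnpr, whose longest annotated transcript has 21452 nt, was called lower, and 3.30% of the 14745 genes with a known length were called higher and 4.88% lower.

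**Figure D2:**
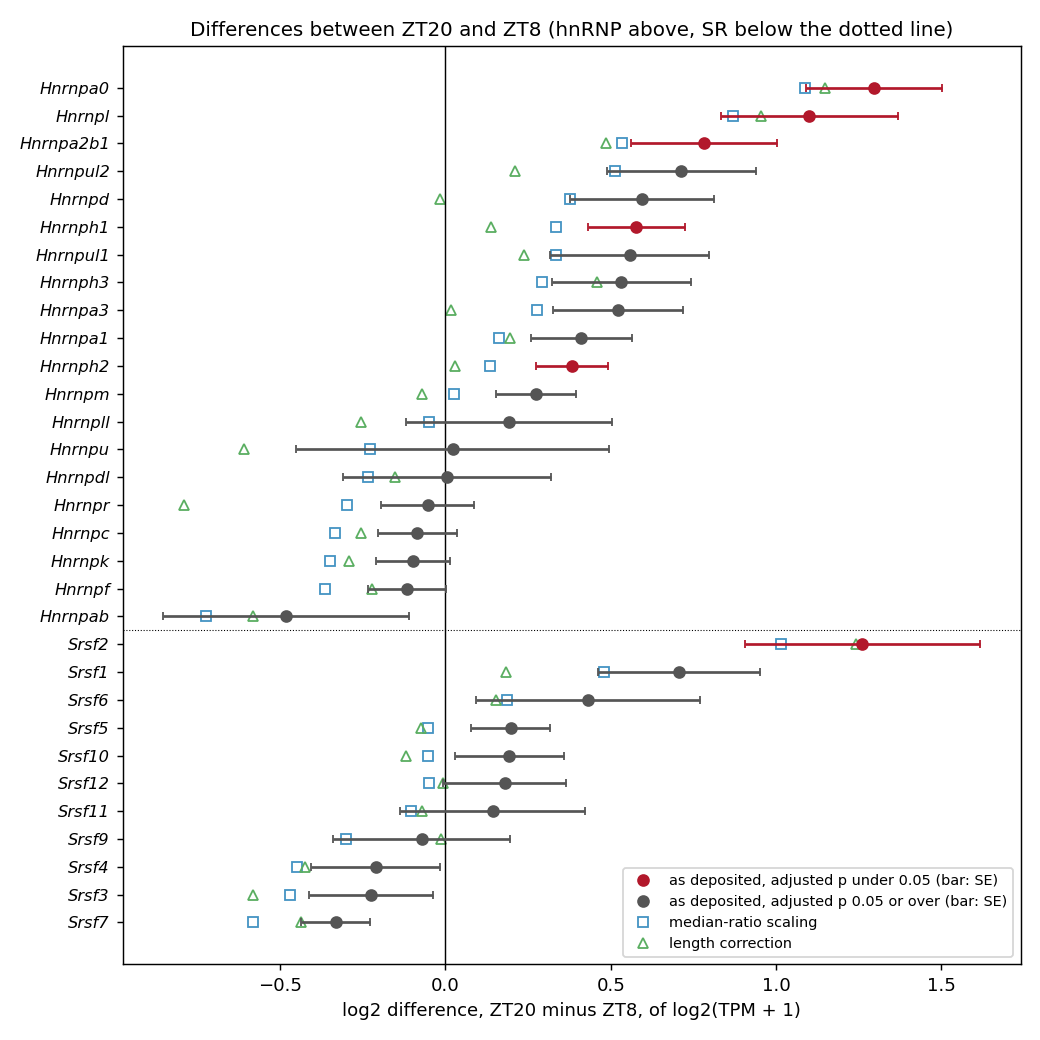
Difference of mean log2(TPM + 1), ZT20 minus ZT8, for 20 hnRNP genes (above the dotted line) and 11 SR genes (below it). Filled circles with standard error bars are the values as deposited, red where the adjusted p is under 0.05, squares are median-ratio scaling and triangles the length correction. Hnrnpa0, Hnrnpl and Srsf2 keep log2 differences of at least 0.87 under both adjustments.

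Among the A/B proteins, which bind AU- or UAG-rich RNA and often silence exons, Hnrnpa0 had the highest log2 difference. Over all 31 members it ranked first in the values as deposited, followed by Srsf2, which ranked above it under quantile normalization and the length correction, among other alternatives. This gene without introns in its coding sequence had levels of 11.03, 8.12, 12.05 and 9.82 TPM in ZT20 replicates 1 to 4 and of 3.97, 2.99 and 3.72 TPM in ZT8 replicates 1 to 3. Every ZT20 sample lay above every ZT8 sample. The log2 difference was 1.30 ± 0.21 (SE) (limma adjusted p = 0.00784). Leaving out each replicate in turn kept it called, at 1.20 to 1.39. Adjusted for a score of neuronal against other cell markers, the log2 difference was 1.16 (limma adjusted p = 0.0403). Hnrnpa0 was the 1 member called in that fit, beside 773 genes higher and 88 lower of all 14800. Without ZT20 replicates 3 and 4, which had almost no Y-linked transcripts, the log2 difference was 1.20 and not called (limma adjusted p = 0.184). In that fit 0 of the 14800 genes were called by limma, and 2425 had an unadjusted p under 0.05.

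Hnrnpa2b1, which binds RNA transport signals and travels with mRNAs into neurites, was at 195, 127, 194 and 185 TPM at ZT20 and at 136, 78.5 and 93.3 TPM at ZT8. ZT20 replicate 2 lay below ZT8 replicate 1, so the groups overlapped. The log2 difference was 0.78 ± 0.22 (SE) (limma adjusted p = 0.0450), and it was not called after median-ratio scaling (0.53) or the length correction (0.49). Of the 7 fits without 1 replicate, 2 called it (those without ZT20 replicate 2 and without ZT8 replicate 1), and the log2 differences were 0.61 to 1.00. Hnrnpa1, an antagonist of Srsf1 in the choice between 5′ splice sites, was at 134, 128, 134 and 129 TPM at ZT20 and at 110, 76.4 and 114 TPM at ZT8. Its groups did not overlap, yet it was not called (log2 difference 0.41, limma adjusted p = 0.0947). Hnrnpa3 was at 50.3, 32.0, 52.4 and 51.3 TPM at ZT20 and at 34.3, 32.3 and 28.1 TPM at ZT8, with ZT20 replicate 2 inside the ZT8 range (log2 difference 0.52, limma adjusted p = 0.0979).

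Hnrnpl, which binds CA-rich RNA, was higher at ZT20. It was at 21.6, 22.3, 22.2 and 21.0 TPM in the ZT20 samples and at 11.96, 5.48 and 13.2 TPM in the ZT8 samples. The ZT20 values were within a narrow band above all ZT8 values, and ZT8 replicate 2 was the lowest. The log2 difference was 1.10 ± 0.27 (SE) (limma adjusted p = 0.0280), and 0.74 without ZT8 replicate 2 (limma adjusted p = 0.00922). Leaving out any 1 ZT20 replicate ended the call, with log2 differences of 1.09 to 1.12 and limma adjusted p-values of up to 0.0869. Its paralog Hnrnpll, known for its part in Ptprc splicing in lymphocytes, was at 14.9, 31.7, 37.4 and 39.4 TPM at ZT20 and at 25.2, 28.7 and 22.2 TPM at ZT8. ZT20 replicate 1 was the lowest of all samples and the other ZT20 samples were the highest (log2 difference 0.19, limma adjusted p = 0.690).

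In the F/H group, whose proteins bind runs of guanines, Hnrnph1 and Hnrnph2 were higher at ZT20. Hnrnph1 was at 44.5, 53.6, 55.4 and 52.9 TPM at ZT20 and at 35.1, 29.2 and 38.8 TPM at ZT8, or 0.58 ± 0.15 (SE) on the log2 scale (limma adjusted p = 0.0327). X-linked Hnrnph2 was at 91.3, 96.3, 96.9 and 86.7 TPM at ZT20 and at 74.9, 67.4 and 70.6 TPM at ZT8, or 0.38 ± 0.11 (SE) on the log2 scale (limma adjusted p = 0.0464). Neither gene's groups overlapped. After median-ratio scaling they were at 0.33 and 0.13, after the length correction at 0.14 and 0.030, and neither was called in those fits. Leaving out 1 replicate kept Hnrnph1 called in 2 of 7 fits (without ZT8 replicate 2 or 3) and Hnrnph2 in 0 of 7, where its limma adjusted p was 0.0501 to 0.137. The log2 differences in these fits were 0.47 to 0.67 for Hnrnph1 and 0.35 to 0.42 for Hnrnph2.

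Hnrnpf, which also binds G runs, was not called. It was at 102, 95.1, 110 and 109 TPM at ZT20 and at 125, 109 and 105 TPM at ZT8, with overlapping groups (log2 difference −0.12, limma adjusted p = 0.510). Median-ratio scaling put it at −0.36 and called it lower (limma adjusted p = 0.0468). The level of Hnrnpf relative to Hnrnph1, a ratio within each sample that scaling between samples cannot change, was 1.77 to 2.30 at ZT20 and 2.70 to 3.73 at ZT8. Relative to Hnrnph2 it was 0.988 to 1.26 at ZT20 and 1.49 to 1.67 at ZT8. The length correction does change such ratios, and with it Hnrnpf was at −0.22 beside 0.14 for Hnrnph1 and 0.030 for Hnrnph2. Hnrnph3 was at 24.9, 29.0, 26.0 and 28.4 TPM at ZT20 and at 26.2, 14.1 and 16.7 TPM at ZT8 and was not called (log2 difference 0.53, limma adjusted p = 0.111).

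The remaining hnRNP genes were not called. Hnrnpk was at 509, 563, 577 and 607 TPM at ZT20 and at 648, 541 and 625 TPM at ZT8 (log2 difference −0.099). Hnrnpc was at 163 to 181 TPM at ZT20 and at 164, 207 and 166 TPM at ZT8 (−0.084). Both genes' groups overlapped, and median-ratio scaling put them at −0.35 and −0.33, also without a call. Hnrnpu, a scaffold protein of nuclear RNA and chromatin, was at 43.8, 153, 187 and 192 TPM at ZT20 and at 131, 102 and 140 TPM at ZT8. ZT20 replicate 1 was the lowest sample by far, and without it the log2 difference was 0.52 in place of 0.022 (limma adjusted p = 0.0966 and 0.979). Its relatives Hnrnpul1 and Hnrnpul2 were higher in every ZT20 sample than in any ZT8 sample, with log2 differences of 0.56 and 0.71 (limma adjusted p = 0.138 and 0.0619). Median-ratio scaling put these 2 genes at 0.33 and 0.51 and the length correction at 0.24 and 0.21, without a call.

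In the D group, whose founding member Hnrnpd (AUF1) binds AU-rich elements of unstable mRNAs, none of the 3 genes was called. Hnrnpd was at 10.8, 9.57, 10.4 and 7.68 TPM at ZT20 and at 6.14, 4.58 and 7.55 TPM at ZT8, without overlap (log2 difference 0.60, limma adjusted p = 0.0927). Median-ratio scaling put Hnrnpd at 0.38 and the length correction at −0.016, both without a call. Hnrnpdl was at 20.7 to 22.2 TPM at ZT20 and at 32.0, 11.1 and 26.7 TPM at ZT8 (log2 difference 0.0050). Hnrnpab was at 19.2, 25.8, 21.6 and 19.5 TPM at ZT20 and at 14.7, 54.7 and 33.9 TPM at ZT8 (−0.48, limma adjusted p = 0.382). ZT8 replicate 2 was the lowest sample for Hnrnpdl and the highest for Hnrnpab. Leaving it out called Hnrnpdl lower (−0.44, limma adjusted p = 0.0491), and leaving out ZT8 replicate 1 called Hnrnpab lower (−0.98, limma adjusted p = 0.0352). Hnrnpm, which binds GU-rich RNA, was at 67.1 to 78.6 TPM at ZT20 and at 56.0 to 66.4 TPM at ZT8, without overlap (0.27, limma adjusted p = 0.149). Hnrnpr, which interacts with Smn in motor axons, was at 30.9 to 39.8 TPM at ZT20 and at 34.8 to 40.7 TPM at ZT8 (−0.054).

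Among SR genes with a single RRM, Srsf2 was higher at ZT20 and the others were not called. Srsf2 (SC35), which binds both C-rich and G-rich exonic enhancers, was at 74.3, 107, 51.6 and 39.8 TPM at ZT20 and at 20.3, 40.1 and 21.4 TPM at ZT8. ZT20 replicate 4 lay just below ZT8 replicate 2, so the groups overlapped, and values within ZT20 spread widely. The log2 difference was 1.26 ± 0.36 (SE) (limma adjusted p = 0.0444). It was 1.02 after median-ratio scaling (limma adjusted p = 0.115) and 1.24 after the length correction (limma adjusted p = 0.0800). Leaving out 1 replicate kept the call in 1 of 7 fits, that without ZT8 replicate 2, with log2 differences of 1.01 to 1.56. Srsf2 overlaps Mfsd11 and Mettl23 on the opposite strand. Mfsd11 was at 58.7 to 86.0 TPM at ZT20 and 25.4 to 59.4 TPM at ZT8, and Mettl23 at 13.2 to 18.8 TPM and 20.4 to 32.4 TPM. Whether reads were assigned by strand is not given in the sources used here, so the part of these neighbours in the Srsf2 values was not tested.

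Srsf7, a factor close in sequence to Srsf3 that also acts in mRNA export, was at 119, 110, 120 and 121 TPM at ZT20 and at 152, 154 and 137 TPM at ZT8. Every ZT20 sample lay below every ZT8 sample. The log2 difference was −0.33 ± 0.10 (SE) and was not called (limma adjusted p = 0.0617), while median-ratio scaling gave −0.58 and a call (limma adjusted p = 0.0154). Srsf7 made up 17.98% ± 1.02 of SR TPM at ZT20 (SD, n = 4), against 24.5% ± 1.99 at ZT8 (SD, n = 3). Srsf3, which regulates its own splicing, was at 47.6, 51.3, 52.0 and 36.0 TPM at ZT20 and at 42.7, 61.8 and 60.3 TPM at ZT8 (−0.22, limma adjusted p = 0.420). Srsf10, a splicing repressor when dephosphorylated, was at 49.4 to 65.6 TPM at ZT20 and 43.7 to 63.0 TPM at ZT8 (0.19). Srsf11 was at 90.3, 75.7, 94.0 and 100 TPM at ZT20 and at 105, 46.6 and 108 TPM at ZT8 (0.14), and Srsf12 at 8.57 to 12.2 TPM and 8.68 to 10.3 TPM (0.18).

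None of the 5 SR genes with a pair of RRMs was called. Srsf1 (ASF/SF2), the founding SR protein, was at 11.4, 14.1, 16.1 and 16.0 TPM at ZT20 and at 7.37, 6.29 and 12.4 TPM at ZT8. ZT8 replicate 3 was above ZT20 replicate 1, and the log2 difference was 0.71 (limma adjusted p = 0.0804). It was 0.48 after median-ratio scaling and 0.18 after the length correction, also without a call. Srsf1 relative to its closest relative Srsf9 was at a ratio of 1.46 to 1.53 at ZT20 and 0.413 to 1.24 at ZT8. Srsf5 was at 154 to 188 TPM at ZT20 and at 137 to 163 TPM at ZT8 (0.20, limma adjusted p = 0.269). Srsf6 was at 57.9, 38.4, 56.2 and 52.5 TPM at ZT20 and at 52.2, 19.1 and 51.6 TPM at ZT8, where ZT8 replicate 2 alone was low (0.43, limma adjusted p = 0.392). Srsf4 was at 12.998 to 18.02 TPM at ZT20 and at 14.7 to 22.8 TPM at ZT8 (−0.21).

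**Figure D3:**
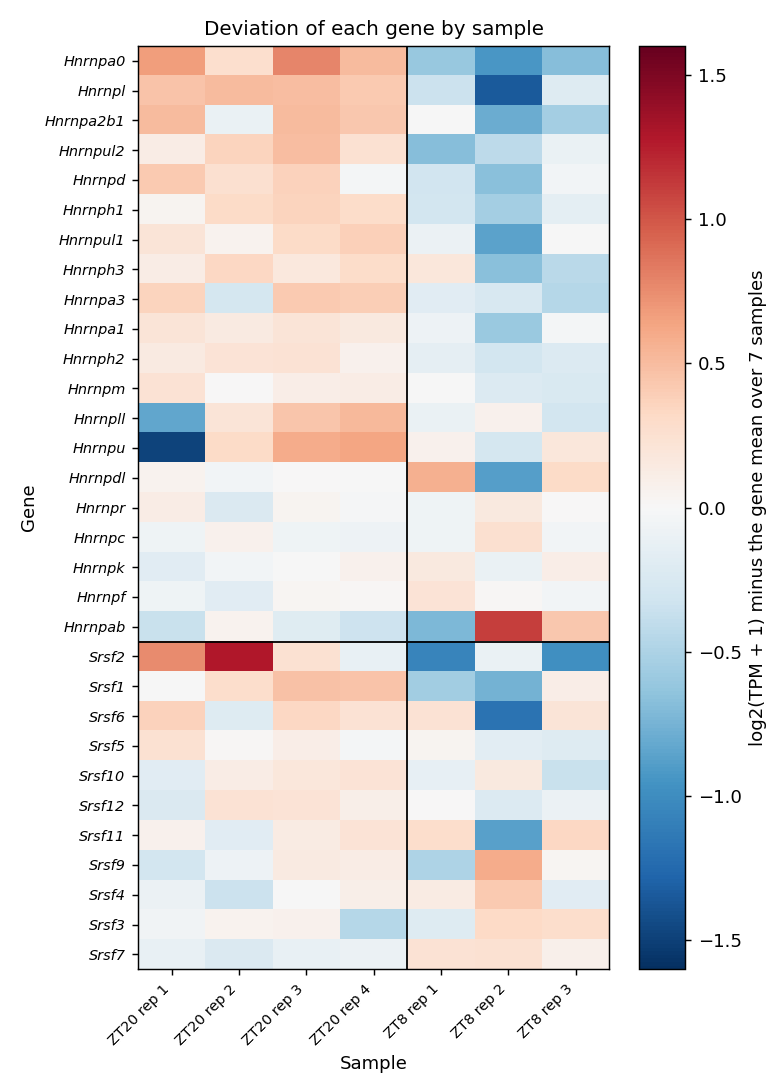
Deviation of log2(TPM + 1) from the gene's mean over 7 samples, for 20 hnRNP genes (above the horizontal line) and 11 SR genes (below it), with ZT20 samples left of the vertical line and ZT8 samples right of it. Low values of single libraries stand out for Hnrnpu in ZT20 replicate 1 (43.8 TPM) and for Srsf6 in ZT8 replicate 2 (19.1 TPM).

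ZT8 replicate 2, the library with the fewest genes above 0 TPM, was the lowest of the 7 samples for 13 of 31 members (41.9%). Over all tested genes it was the lowest for 40.2%. It was also the highest sample for 7 members (22.6%), among them Hnrnpab, Hnrnpc and Srsf9, and for 20.1% of all tested genes. Without ZT20 replicate 1 and ZT8 replicate 2 together, Hnrnpa0, Hnrnph1 and Hnrnpl were called higher and no member lower, beside 1672 higher and 339 lower of all 14800 genes.

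Ratios between paralogs are free of scaling between samples, though not of differences in length. Of 19 pairs within hnRNP subfamilies 6 had ratios that did not overlap between the groups, and of 25 pairs within SR subfamilies 5. Among all pairs of 13822 tested genes that were above 0 in every sample the share was 29.6%, so both counts were near the background. The 6 hnRNP ratios were those of Hnrnpa0 to Hnrnpa1, Hnrnpa2b1 and Hnrnpa3, and of Hnrnpf to Hnrnph1, Hnrnph2 and Hnrnph3. Hnrnpa0 relative to Hnrnpa1 was 0.0632 to 0.0896 at ZT20 and 0.0326 to 0.0392 at ZT8. Srsf2 relative to Srsf7 was 0.330 to 0.970 at ZT20 and 0.133 to 0.260 at ZT8.

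**Figure D4:**
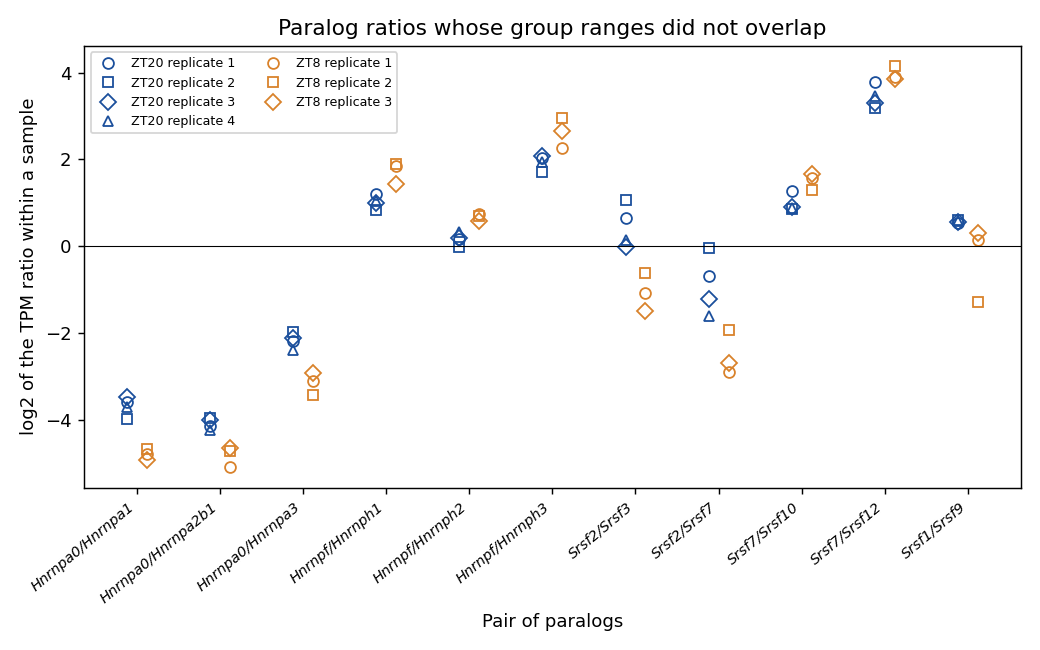
Ratio of TPM within a sample, on a log2 scale, for the 11 paralog pairs whose ranges did not overlap between 4 ZT20 samples (blue) and 3 ZT8 samples (orange), with 1 symbol per replicate. Hnrnpa0 lies higher at ZT20 relative to each of 3 relatives, and Hnrnpf lower relative to each of 3 relatives.

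The promoters of 4 called members are shown because they cover both families and differ in base composition. Each is the 250 bases before the RefSeq gene start (GRCm38.p6), which may differ from the start in the build of the deposited table. They lie at chr13:58128557-58128806, minus strand (Hnrnpa0), chr7:28810640-28810889, plus strand (Hnrnpl), chrX:134600929-134601178, plus strand (Hnrnph2) and chr11:116853095-116853344, minus strand (Srsf2). They are written 5′ to 3′ on the gene's strand, and capitals mark CCAAT or its reverse complement ATTGG, the letters of the CCAAT box.
Hnrnpa0: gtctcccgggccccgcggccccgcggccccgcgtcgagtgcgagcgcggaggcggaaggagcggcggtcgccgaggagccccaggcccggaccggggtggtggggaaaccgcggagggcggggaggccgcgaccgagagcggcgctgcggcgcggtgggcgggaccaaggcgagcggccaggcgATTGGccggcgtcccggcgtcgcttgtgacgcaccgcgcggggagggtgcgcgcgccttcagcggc
Hnrnpl: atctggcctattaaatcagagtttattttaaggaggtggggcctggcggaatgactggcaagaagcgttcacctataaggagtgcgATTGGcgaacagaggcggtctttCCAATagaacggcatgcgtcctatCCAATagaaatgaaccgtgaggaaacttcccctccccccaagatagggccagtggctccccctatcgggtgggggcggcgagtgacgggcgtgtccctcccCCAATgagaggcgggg
Hnrnph2: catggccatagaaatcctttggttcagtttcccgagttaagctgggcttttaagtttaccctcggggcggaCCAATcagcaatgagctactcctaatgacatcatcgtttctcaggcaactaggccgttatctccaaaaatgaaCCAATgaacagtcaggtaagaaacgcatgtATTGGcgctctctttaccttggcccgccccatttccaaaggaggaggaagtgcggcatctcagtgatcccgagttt
Srsf2: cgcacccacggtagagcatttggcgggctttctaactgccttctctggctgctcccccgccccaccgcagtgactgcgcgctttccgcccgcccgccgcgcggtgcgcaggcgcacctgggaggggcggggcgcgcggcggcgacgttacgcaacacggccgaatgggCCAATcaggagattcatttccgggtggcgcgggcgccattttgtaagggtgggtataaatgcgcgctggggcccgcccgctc

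The Hnrnpa0 window has a GC content of 81.2% and 1 CCAAT match, which starts 66 bases before the gene start. Hnrnpl has 4 matches at a GC content of 56.4%, Hnrnph2 has 3 at 48.4%, and Srsf2 has 1 at 69.6%. Of the 31 members 29 had a promoter in the table (not Hnrnpll and Hnrnpul2), with a median GC content of 65.2% against 52% over 27025 genes. The 27025 genes were not filtered by level, whereas all members passed the minimum mean, so the shares compare unlike sets. Motifs were searched by their letters on both strands, and no motif contains another. CCAAT was in 15 of 29 member windows (51.7%) and in 34.5% of all windows. GGGCGG, the GC box, was in 23 (79.3%) and in 32.9% of all, and CCGGAAG, letters bound by ETS factors, was in 6 (20.7%) and in 7.05% of all. Of the letters bound by clock factors, the E-box CACGTG was in 2 members, Hnrnpa3 and Hnrnpd (6.90%, against 6.05% of all), and the D-box TTANGTAA in 1, Hnrnpa2b1 (3.45%, against 2.11%). AGGTCA, a half-site of nuclear receptors, was in 3 (10.3%, against 13.8%), and TATAAA in 3 (10.3%, against 12.97%). A match is a description of these letters and not a site of binding.

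In the GENCODE M21 annotation, 9 of 11 SR genes (81.8%) and 10 of 20 hnRNP genes (50%) had a transcript classed as a target of nonsense-mediated decay, against 28.1% of tested protein-coding genes. The median number of annotated transcripts, with which the chance of having such a transcript grows, was 7 for SR genes, 8 for hnRNP genes and 5 for tested protein-coding genes. A retained-intron transcript was annotated for 72.7% of SR genes, 70.0% of hnRNP genes and 57.4% of tested protein-coding genes. Levels here are per gene and do not separate such transcripts. The longest transcript had a median length of 3714.5 nt for hnRNP genes, 3106 nt for SR genes and 3348 nt for tested protein-coding genes. Of the 31 members 16 overlapped another annotated gene, 12 of them at least 1 on the opposite strand.

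Other genes of the pathway were read from 7 lists. Their counts stand beside 12.8% of all tested genes higher, 3.61% lower and a median of 0.23. After median-ratio scaling they stand beside 7.36% higher and 8.47% lower, and after the length correction beside 3.30% higher and 4.88% lower. Some hnRNP proteins carry other symbols. Of 11 such genes tested, 0 were higher and 2 lower at ZT20, with a median log2 difference of 0.13. Raly was at 259 to 278 TPM at ZT20 and at 341 to 474 TPM at ZT8 (log2 difference −0.59, limma adjusted p = 0.0187). Cirbp, the cold-inducible RNA-binding protein, was at 99.3 to 120 TPM at ZT20 and at 140 to 179 TPM at ZT8 (−0.50, limma adjusted p = 0.0326). Neither overlapped between the groups. After median-ratio scaling they were at −0.84 and −0.75, and both were called. After the length correction Raly was at −0.59 and called (limma adjusted p = 0.0439) and Cirbp at −0.44 and not called (limma adjusted p = 0.0708).

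Partners of the hnRNPs in the nucleus, the FET and paraspeckle proteins, had 3 of 10 genes higher and 0 lower (median 0.50). These were Safb, a scaffold attachment factor (0.99, limma adjusted p = 0.0158), Sfpq (0.80, limma adjusted p = 0.0216) and Matr3 (0.56, limma adjusted p = 0.0264). Median-ratio scaling called 1 of these 10 higher (Safb), and the length correction called 1 higher and 1 lower, with a median of 0.10 and Matr3 at −0.023. SR-related proteins, which carry arginine- and serine-rich stretches without being classic SR proteins, had 8 of 18 higher and 0 lower (median 0.42). The 6 with the greatest differences were Luc7l3 (1.01), Srrm4 (0.98), Luc7l2 (0.95), Son (0.94), Tra2a (0.94) and Acin1 (0.79). Luc7l3 was at 33.3 to 39.7 TPM at ZT20 and at 16.3 to 18.6 TPM at ZT8 (limma adjusted p = 0.00482). Srrm4, which promotes neuronal microexons, was at 5.83 to 6.55 TPM at ZT20 and at 2.02 to 3.71 TPM at ZT8 (limma adjusted p = 0.0246). Median-ratio scaling called 3 SR-related genes higher and 1 lower, and the length correction 0 higher and 1 lower (median 0.13).

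Genes that modify SR proteins or hnRNPs or carry them into the nucleus had 5 of 14 higher and 2 lower (median 0.40). Tnpo2 (1.49) and Tnpo1 (1.04), import receptors of hnRNPs and FET proteins, Tnpo3 (0.57), the import receptor of SR proteins, and the kinases Srpk2 (0.97) and Prpf4b (0.95) were higher. Clk4, a nuclear SR protein kinase, was at 31.5 to 35.04 TPM at ZT20 and at 42.0 to 49.3 TPM at ZT8 (−0.44, limma adjusted p = 0.0468). The phosphatase subunit Ppp1ca was at 467 to 602 TPM at ZT20 and at 709 to 878 TPM at ZT8 (−0.58, limma adjusted p = 0.0218). Median-ratio scaling called 3 of these genes higher and 2 lower, and the length correction 0 higher and 2 lower (median 0.035).

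Of 41 core spliceosome genes 6 were higher and 2 lower (median 0.33), a share of calls near the background of 16.4%. Prpf8, the scaffold of the catalytic centre, was higher by 1.33 (limma adjusted p = 0.0239), and the helicase Snrnp200 by 1.31 (limma adjusted p = 0.00919). U2af1, which reads the AG at the 3′ splice site, was at 110 to 133 TPM at ZT20 and at 52.0 to 77.1 TPM at ZT8 (0.89, limma adjusted p = 0.00954). Sf3b6, a small subunit of the branch-site complex, was at 56.6 to 74.0 TPM at ZT20 and at 92.2 to 198 TPM at ZT8 (−0.99, limma adjusted p = 0.0289). Aqr (1.01) and Dhx8 (0.91), both helicases, were also higher. Median-ratio scaling called 6 core genes higher and 4 lower, and the length correction 2 higher and 2 lower (median 0.069).

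Other regulators of alternative splicing had 9 of 24 tested genes higher and 0 lower (median 0.54). Mbnl1, a muscleblind protein of developmental splicing, was at 464 to 824 TPM at ZT20 and at 128 to 391 TPM at ZT8 (1.53, limma adjusted p = 0.0296). Elavl4 (HuD), a neuronal protein that stabilises mRNAs of axon growth, was at 565 to 622 TPM at ZT20 and at 221 to 374 TPM at ZT8 (1.08, limma adjusted p = 0.00735). The score of neuronal against other cell markers was 5.43 to 5.77 at ZT20 and 5.09, 4.90 and 5.70 in ZT8 replicates 1 to 3, and its part in the differences of the genes on these lists was not tested. Celf6 (1.48), Qk (1.09), Tia1 (0.69) and Elavl2 (0.69) were also higher. Qk is a known glial splicing factor, and satellite glia markers summed to lower levels at ZT20, as given above; the part of this in the Qk difference was not tested. Median-ratio scaling called 3 genes of this list higher and 0 lower, and the length correction 1 higher and 2 lower (median 0.096). Of 15 genes of nonsense-mediated decay 2 were higher and 0 lower (median 0.57), Upf2 (0.95, limma adjusted p = 0.0194) and Rbm8a (0.57, limma adjusted p = 0.0292). The share higher was near the 12.8% of all tested genes, and the length correction called 0 higher and 0 lower (median 0.14).

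**Figure D5:**
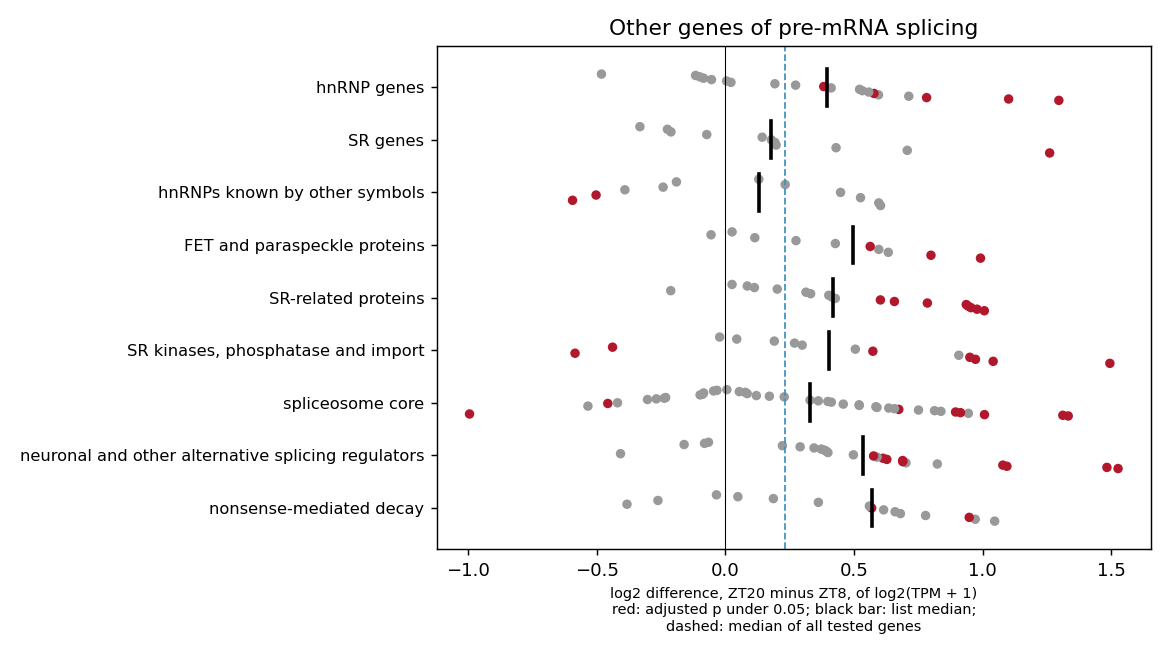
Log2 difference of every tested gene of the hnRNP and SR families and of 7 further lists, ZT20 minus ZT8, with 1 point per gene (red where the adjusted p is under 0.05), a black bar at the list's median and a dashed line at the median of all tested genes (0.23). The medians run from 0.13 for hnRNPs known by other symbols to 0.57 for nonsense-mediated decay.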

How the data were processed

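RNA was sequenced from 7 samples, 4 at ZT20 and 3 at ZT8, grouped by their titles. Libraries were made with a low-input kit, per the labels' protocols. The authors deposited TPM values (abundance per transcript length, scaled to one sum) per gene, with 1 column for each sample. FastQC 0.11.9, Trim Galore 0.6.6, Salmon 1.6.0, DESeq2 1.34.0 and the build GRCm39 are named, per the submitters' processing notes, without their roles. The annotation release and the use of strand are not given in the sources used here.

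TPM holds no depth, so the counting error of each value is unknown. Values were analysed as log2(TPM + 1), which understates changes of low genes. The 14800 genes whose mean reached 1 TPM were fitted with limma 3.58.1 (intensity trend, R 4.3.3, two-sided) without covariates, with Benjamini-Hochberg adjustment over all of them at 0.05. The procedure was tested on simulated data. Transcript lengths came from GENCODE M21, known for 14745 tested genes, and the length correction was a loess fit per sample (span 0.3). Promoters came from RefSeq (GRCm38.p6).

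The members and lists were chosen with earlier results of these data known. Named members were set by a rule: 25 listed genes, those called, the 3 highest and 3 lowest differences and the extremes of abundance. Other lists were named by their called genes, up to 6 by size of difference. Hnrnph3, Hnrnpul1, Srsf12 and Clk4 were added after their values were seen. Alternatives are given in the closing section. Python 3.11.15 with pandas 2.3.3 and matplotlib 3.10.9 drew the figures.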

Additional observations from a re-analysis of the deposited data

Results flagged for a closer look

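For 3 of the 31 members, ZT20 replicate 2 stood apart from the other ZT20 samples by Dixon's test at the 95% level. Hnrnpa2b1 was at 127 TPM there, below the others. Hnrnpa3 was at 32.0 TPM, also below, and Hnrnpc was at 181 TPM, above the others. Chance marks about 1 in 20 groups, and 31 groups were tested.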

How the results depend on the processing

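Counts of called members moved with the processing. For hnRNP genes higher at ZT20 the count of 5 became 1 with no filter on low values and with the marker score as covariate, 2 with median-ratio scaling, quantile normalization, the replicate block and the length correction, 3 without the intensity trend, 7 with array weights, 9 at an adjusted p under 0.10, and 0 without ZT20 replicates 3 and 4. Leaving out each replicate in turn gave 1 to 4. The count of hnRNP genes lower was 1 with median-ratio scaling and the length correction and 0 to 1 without single replicates. For SR genes higher, the count of 1 became 0 with no filter, median-ratio scaling, quantile normalization, the length correction, the marker score, no intensity trend and without ZT20 replicates 3 and 4, and 2 with array weights and at 0.10. It was 0 to 1 without single replicates. SR genes lower numbered 1 with median-ratio scaling, array weights and at 0.10. A pseudocount of 0.1 or a mean of at least 5 TPM left all 6 calls in place. The cause of these shifts was not tested.

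Over all genes, median-ratio scaling gave 1089 higher and 1254 lower (46.5% higher, against 78.1% as deposited), the length correction 487 and 720, quantile normalization 1023 and 814, the replicate block 891 and 283, the marker score 773 and 88, no filter 520 and 75, no intensity trend 1865 and 332, array weights 2982 and 917, and the threshold of 0.10 3098 and 981. Without single replicates, 543 to 2374 genes were higher and 81 to 681 lower. Medians of the hnRNP and SR members were 0.15 and −0.054 with median-ratio scaling and 0.00010 and −0.070 with the length correction. Same-numbered deviations correlated at −0.014, 0.15 and 0.083, and 2 of 6 samples correlated best with their own number. With so few samples these values cannot settle whether replicate numbers pair the samples. With the replicate block, Hnrnpa0, Hnrnpa2b1 and Srsf2 were called.

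Some differences changed sign, Hnrnpd (0.60 as deposited) and Hnrnpa3 (0.52) among them. With median-ratio scaling they were Hnrnpdl (−0.23), Hnrnpll (−0.050), Hnrnpu (−0.23), Srsf10 (−0.054), Srsf11 (−0.10), Srsf12 (−0.049) and Srsf5 (−0.052). Under quantile normalization they were Hnrnpdl (−0.24), Hnrnpll (−0.027), Hnrnpu (−0.020) and Srsf12 (−0.14). The length correction gave Hnrnpd (−0.016), Hnrnpdl (−0.15), Hnrnpll (−0.26), Hnrnpm (−0.070), Hnrnpu (−0.61), Srsf10 (−0.12), Srsf11 (−0.070), Srsf12 (−0.0070) and Srsf5 (−0.074). The marker score gave Hnrnpc (0.014), Hnrnpdl (−0.31), Srsf11 (−0.21), Srsf6 (−0.034) and Srsf9 (0.061). Array weights gave Hnrnpdl (−0.37), Hnrnpr (0.035), Srsf11 (−0.11) and Srsf9 (0.26). Hnrnpu was at −0.18 with the replicate block. Without ZT20 replicates 3 and 4, Hnrnpll was at −0.20 and Hnrnpu at −0.58. Without single replicates, sign changes occurred for Hnrnpc (−0.14 to 0.022), Hnrnpdl (−0.44 to 0.29), Hnrnpr (−0.10 to 0.017), Hnrnpu (−0.18 to 0.52), Srsf11 (−0.25 to 0.35), Srsf6 (−0.035 to 0.67) and Srsf9 (−0.34 to 0.20).

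A pair of alternatives was chosen after seeing the data. Without ZT20 replicate 1 and ZT8 replicate 2, 3 hnRNP genes and 0 SR genes were higher (1672 higher and 339 lower over all genes), and Hnrnpc (0.031), Hnrnpdl (−0.45), Srsf11 (−0.25), Srsf6 (−0.098) and Srsf9 (0.29) changed sign. With the replicate block and the length correction together, 0 hnRNP genes and 1 SR gene were higher (239 higher and 326 lower over all 14745 genes), and the medians were 0.039 and −0.074, against −0.011 for all genes. There Hnrnpa3 (−0.0086), Hnrnpdl (−0.14), Hnrnpll (−0.37), Hnrnpm (−0.045), Hnrnpu (−0.78), Srsf10 (−0.14), Srsf11 (−0.11) and Srsf5 (−0.013) changed sign. Depth is unknown, so low genes such as Hnrnpul2 have an unknown counting error.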
